A study of Mus musculus with 10 samples.

Results

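The expression of 40 cell cycle and proliferation genes was examined in the hippocampus of female P301S mice that carried a DHT implant or a void implant. The genes were taken by name, by matching the Ensembl identifiers of the deposited count table to gene symbols. The list was chosen with earlier results of these data known. All 40 had a row among the 56884 genes of the table, and 37 had enough counts to be tested. The set joins 15 genes of S phase entry and DNA replication with 25 genes of mitosis.

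All 10 mice were ovary-intact females of the P301S line (PS19), a transgenic tauopathy model in which the mouse prion protein promoter drives human Tau with the P301S mutation. The 5 DHT-treated females received a subcutaneous implant of SILASTIC tubing packed with 10 mm of dihydrotestosterone powder, an androgen that aromatase cannot convert to estrogen. The 5 void-treated females received the same tubing without hormone. Implants were placed at 6 months of age, kept for 12 weeks with regular replacement, and tissue was taken at 9 to 9.5 months. Both groups carry the Tau transgene and intact ovaries, so no comparison with mice free of Tau pathology or of ovarian hormones can be made here. The comparison asks whether DHT changed the transcripts that dividing cells make in this tissue.

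A cell that divides first passes from G1 into S phase, when cyclin D and cyclin E kinases release E2F factors from the retinoblastoma protein and E2F turns on the genes of DNA replication. Genes of mitosis come on later, in G2, mostly through promoters with CCAAT boxes and a short element called the CHR (cell cycle genes homology region). In the adult hippocampus few cells divide, chiefly oligodendrocyte precursors, microglia and the progenitors of the dentate gyrus, and mitotic transcripts are rare in a whole-tissue library. In bulk RNA, fewer cells of a type and less RNA per cell cannot be told apart.

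The promoters were searched for these motifs. RefSeq promoter entries (GRCm38.p6, 300 bases, 250 before and 50 from the start) matched 32 of the 40 genes, 11 of replication and 21 of mitosis. The 150 bases before the start are given 5′ to 3′ on the strand of the gene for Cdk1, the gene called with DHT, for Mki67 and Top2a, the usual proliferation marks, and for Mcm6, which carries E2F motifs. Capitals mark the CHR (TTTGAA), the E2F motif (TTTCCCGC, TTTCGCGC, TTTGCCGC or TTTGGCGC) and the CCAAT box, each on either strand. In Mcm6, the first run of capitals is a pair of E2F motifs, 1 on each strand, that overlap.
Cdk1, chr10:69352913-69353062, minus strand: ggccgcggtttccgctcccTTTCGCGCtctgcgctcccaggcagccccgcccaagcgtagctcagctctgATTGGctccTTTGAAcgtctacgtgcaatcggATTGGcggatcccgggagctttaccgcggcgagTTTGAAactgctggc
Mki67, chr7:135716380-135716529, minus strand: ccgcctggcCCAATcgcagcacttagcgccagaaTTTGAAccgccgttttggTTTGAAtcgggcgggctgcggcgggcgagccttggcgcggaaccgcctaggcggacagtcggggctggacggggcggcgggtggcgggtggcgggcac
Top2a, chr11:99024190-99024339, minus strand: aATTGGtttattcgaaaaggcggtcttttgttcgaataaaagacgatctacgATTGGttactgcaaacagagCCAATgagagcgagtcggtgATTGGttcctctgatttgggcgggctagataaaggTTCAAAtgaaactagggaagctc
Mcm6, chr1:128359706-128359855, minus strand: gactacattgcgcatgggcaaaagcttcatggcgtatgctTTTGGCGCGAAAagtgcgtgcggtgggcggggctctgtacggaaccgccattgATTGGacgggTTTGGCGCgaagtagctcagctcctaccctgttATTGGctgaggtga

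Over the whole entries, 16 of 21 mitosis promoters (76.2%) held a CHR, against 1 of 11 replication promoters (9.09%), that of Mcm2, and 18.1% of all 27025 promoters. E2F motifs were in 4 of 11 replication promoters (36.4%), those of Mcm3, Mcm5, Mcm6 and Mcm7, and in 1 of 21 mitosis promoters (4.76%), that of Cdk1. The share over all promoters was 2.32%. CCAAT boxes were common to both classes, at 72.7% of replication and 85.7% of mitosis promoters against 37.9% of all. Restricted to the bases before the start, a CHR was in 33.3% of mitosis and 16.3% of all promoters, and an E2F motif in 27.3% of replication and 1.91% of all promoters. A match is a description of the letters in the window, and no binding was measured.

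Total counts were 27188854 to 47113661 per void-treated mouse and 33523527 to 45947784 per DHT-treated mouse. Levels are given as CPM, counts scaled to a common library total with edgeR's TMM factors. Neuronal markers of the hippocampus were detected in every library and the Y-linked genes had no count. The number after S in the sample titles is lower for every void library than for any DHT library. What it stands for is not given in the sources used here, and it cannot be told apart from the implant. Values of single mice follow the order void 4, 5, 9, 10 and 11, then DHT 1, 2, 3, 5 and 6, after the replicate numbers in the labels.

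Replication genes were far more abundant than mitosis genes. On a per-length scale, the median void level was 1.84 CPM per kilobase of annotated exon for the 15 replication genes and 0.180 for the 25 mitosis genes. Ccnd1, the cyclin that starts the G1 kinase cascade, had the highest level per length at 14.6 CPM per kilobase, followed by Pcna, the sliding clamp of the DNA polymerases, at 12.7. Anln, a cytokinesis protein that mature oligodendrocytes also express, came next at 6.5 and was the only mitosis gene among the first 12. At the other end were Cdk1 (0.0526), Aurkb (0.0428) and Bub1 (0.0296). Exon lengths came from a reference annotation, and a gene counted by other exons would shift in this order.

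With DHT, 1 of the 37 tested genes, Cdk1, rose at an adjusted p under 0.05 in edgeR's quasi-likelihood test, and 0 fell. The share of 2.7% compares with 5.22% of the 17622 genes tested that were called higher, and 0.261% were called lower. With a log2 fold change beyond 1 asked for as well, Cdk1 was still called, against 2.17% of all genes tested that were higher and 0.0227% that were lower. At an unadjusted p under 0.05, 7 of the 37 genes were higher (18.9%) and 0 were lower, against 13.1% and 4.22% of all genes tested. These were Cdk1, Mki67, Mcm3, Pcna, Top2a, Tyms and Nusap1. DESeq2, the tool the study names, called Mcm3 and Mki67 as well as Cdk1, 3 of 40 genes (7.5%), and 0 lower. Its share over all genes was 5.84% called higher, 1221 of 20917, and 1.07% called lower.

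Positive log2 fold changes were seen in 29 of the 37 genes (78.4%), against 52.4% of all genes tested. The median log2 fold change was 0.16, with 0.12 for the 15 replication genes, 0.20 for the 22 tested mitosis genes and 0.0094 for all genes tested. Single values ran from −0.24 for Ccne2 to 1.45 for Cdk1. Without DHT mouse 3 the median of the set was 0.085. For 31 of the 37 genes the 95% interval of the log2 fold change lay inside ±1, and for 30 it covered 0. Over all 17622 genes tested, 15516 intervals lay inside ±1 and 14562 covered 0. In 4 genes (10.8%), Cdk1, Mcm3, Tyms and Pcna, every DHT-treated mouse was above every void-treated mouse, which held for 5.39% of all genes tested. The reverse order held for 0 of the 37 genes and for 0.88% of all genes tested. The filter on low counts bears on these counts, since a rare gene could enter the test through its DHT libraries alone, as Cdk1 did but for 1 void library.

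**Figure D1:**
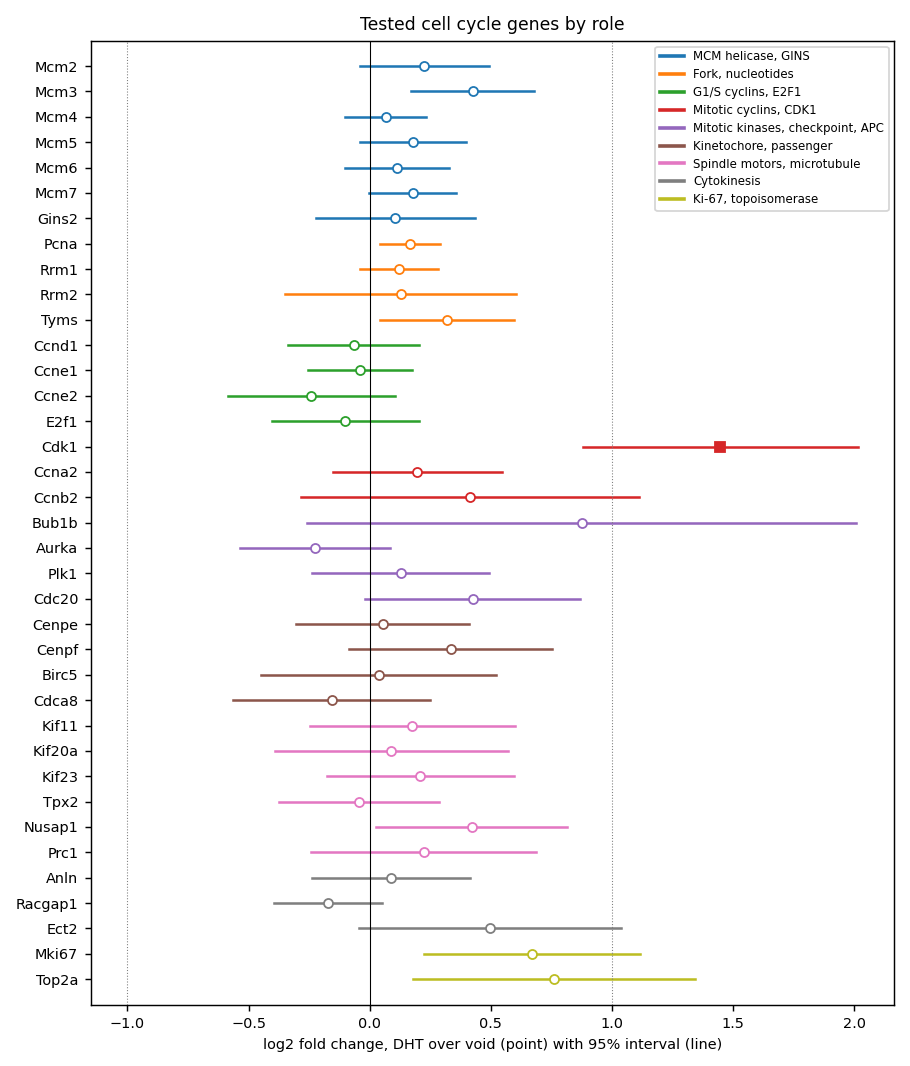
Log2 fold change, DHT over void, of the 37 tested cell cycle genes (points) with 95% intervals (lines) from edgeR's quasi-likelihood fit with 5 mice a group, coloured by role. The filled square is Cdk1, the gene with an adjusted p under 0.05. Of the 37 intervals 30 cover 0, against 14562 of 17622 for all genes tested.

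Cdk1 encodes the kinase that drives entry into mitosis. The promoter stretch printed for it holds 2 CHR elements, 2 CCAAT boxes and 1 E2F motif. Its level was 0.275, 0.288, 0.341, 0.184 and 0.210 CPM in the void-treated mice and 0.765, 0.469, 1.03, 0.628 and 0.685 CPM in the DHT-treated mice. The groups did not overlap, with DHT mouse 3 highest and DHT mouse 2 closest to the void range. The means were 0.260 ± 0.0629 CPM (SD, n = 5) with void and 0.715 ± 0.205 CPM with DHT (SD, n = 5). The log2 fold change was 1.45 (SE 0.26, 95% interval 0.88 to 2.01, adjusted p = 0.0104 in edgeR's quasi-likelihood test).

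These levels rest on few reads. Cdk1 had 13, 9, 11, 5 and 7 counts in the void libraries and 28, 19, 49, 21 and 23 in the DHT libraries. It passed the filter, which asks for about 0.292 CPM in 5 libraries, through the DHT group, since only void mouse 9 reached that level. With no filter beyond 1 count, the log2 fold change of Cdk1 was 1.43 and its edgeR adjusted p 0.00877. It stayed under 0.05 with each mouse left out in turn, with log2 fold changes from 1.24 to 1.57 and a highest edgeR adjusted p of 0.0428. A filter of at least 10 counts in every library left Cdk1 untested.

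Markers of other cells moved with the implant beside Cdk1. The 10 homeostatic microglia markers summed to 449 to 517 CPM with void and 623 to 884 CPM with DHT, with 5 called higher. The 10 markers of disease-associated microglia summed to 257 to 338 CPM with void and 376 to 625 CPM with DHT, with 8 called higher. The 12 choroid plexus markers summed to 117 to 1907 CPM with void and 2173 to 3066 CPM with DHT, with 3 called higher, Kl, Clic6 and Otx2. No marker of these 3 lists was at 0 in every mouse. With a choroid plexus score (the mean z-score of log2 CPM over the markers) as a covariate, the log2 fold change of Cdk1 was 1.11 and the edgeR adjusted p 0.629, and with a score of the homeostatic microglia markers they were 1.58 and 0.813. Each score differed between the implants without overlap, 0 of all genes tested were called in either fit, and the part of these cells in the result cannot be told apart from treatment.

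Marker sums of the other cells that divide in this tissue overlapped between the implants, for the progenitors only narrowly. The 8 oligodendrocyte precursor markers summed to 282 to 353 CPM with void and 302 to 395 CPM with DHT, and 0 were called. The 8 neural stem and progenitor markers summed to 141 to 161 CPM and 160.2 to 181 CPM, with 1 of 7 tested, Hopx, called higher. These sums overlapped only through void mouse 5 at 160.5 CPM and DHT mouse 3 at 160.2 CPM, and Hopx did not overlap between the groups. The 8 markers of neuroblasts and immature granule neurons summed to 345 to 391 CPM with void and 259.9 to 371 CPM with DHT, with 0 called. Tubb3 weighed heavily in this sum, at a mean of 181 CPM with void and 161 CPM with DHT. In this list, log2 fold changes were −0.44 for Dcx (edgeR adjusted p = 0.106) and −0.24 for Neurod1 (0.115). Those of Igfbpl1 (0.46) and Calb2 (0.041) were positive. Overlap was also seen for mature oligodendrocytes, at 3239 to 4469 CPM and 4020 to 4352 CPM, and for astrocytes, endothelial cells, meningeal fibroblasts and neurons. Single markers called higher in these lists were Gfap of astrocytes, with a log2 fold change of 1.18 (edgeR adjusted p = 0.00761), Igf2 of fibroblasts, at 1.68 (0.00931), and Slco1c1 of endothelial cells, at 0.54 (0.0262). Lymphocyte markers summed to at most 1.69 CPM, monocyte and neutrophil markers to at most 10.0 and erythroid markers to at most 2.68, with overlapping groups. The part of any of these cells in the values below was not tested.

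**Figure D2:**
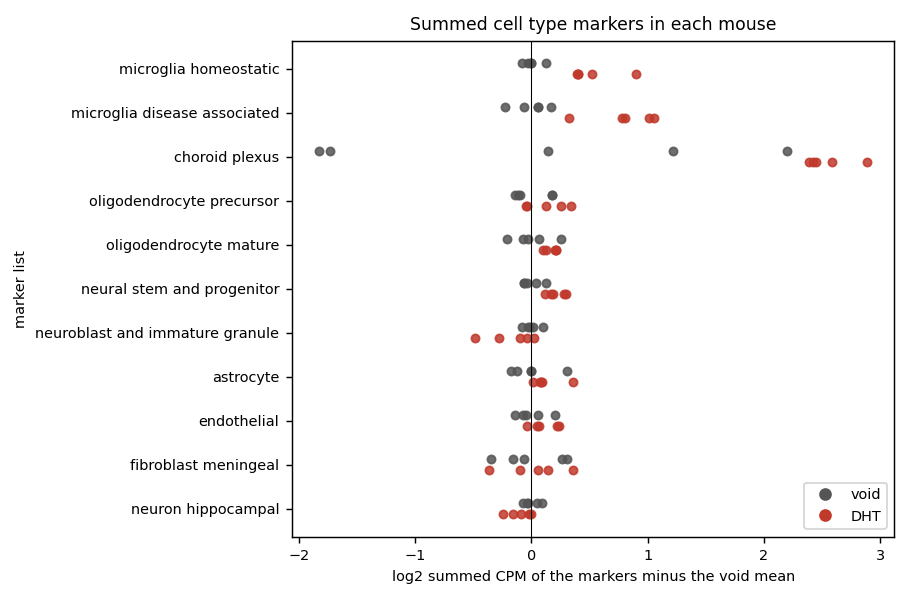
Summed CPM of 11 of the lists of cell type markers in each mouse, without lymphocyte, monocyte and neutrophil, and erythroid markers, on a log2 scale, after subtraction of the void mean (grey, 5 void-treated mice; red, 5 DHT-treated mice). The groups separate for both microglia lists and for the choroid plexus, where void mice run from 117 to 1907 CPM, and overlap for the other 8 lists drawn.

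Mki67 encodes Ki-67, the coat protein of mitotic chromosomes that is the common histological mark of cycling cells. Its printed promoter stretch holds 2 CHR elements and 1 CCAAT box. Its level was 1.99, 1.47, 1.80, 2.10 and 1.68 CPM with void and 3.42, 1.80, 3.94, 2.42 and 2.77 CPM with DHT. In 4 of the 5 DHT-treated mice it was above every void-treated mouse, and DHT mouse 2 lay inside the void range. The log2 fold change was 0.67 (SE 0.20, 95% interval 0.22 to 1.11, edgeR adjusted p = 0.0872). Whether it was called turned on the method and on 1 mouse, since the adjusted p was 0.0454 in DESeq2 and 0.0228 in edgeR without DHT mouse 2.

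Top2a encodes topoisomerase II alpha, which untangles sister chromatids, and its printed promoter stretch holds 1 CHR and several CCAAT boxes. Its level was 1.65, 1.57, 1.12, 1.59 and 0.869 CPM with void and 2.57, 1.75, 3.71, 1.5 and 1.94 CPM with DHT. DHT mice 1 and 3 were highest, as for Mki67, and DHT mouse 5 lay inside the void range. The log2 fold change was 0.76 (SE 0.27, 95% interval 0.18 to 1.34, edgeR adjusted p = 0.139), short of the threshold.

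**Figure D3:**
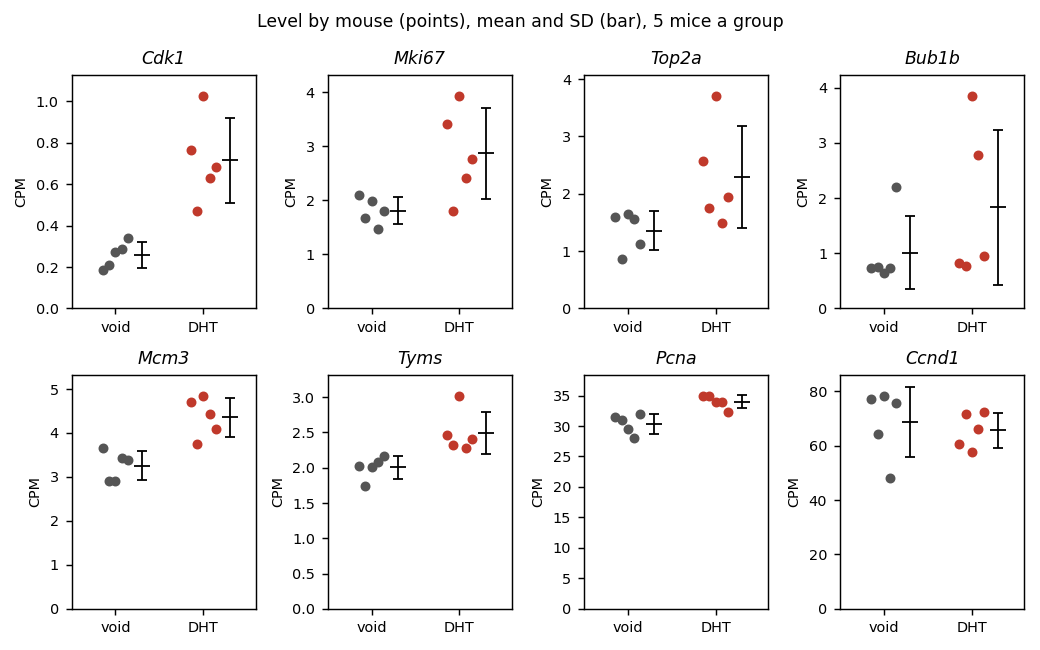
CPM of 8 cell cycle genes in each mouse (points; grey, void; red, DHT) with the mean and SD over 5 mice a group (bars), each axis starting at 0. The groups do not overlap for Cdk1, Mcm3, Tyms and Pcna, 2 of 5 DHT-treated mice and 1 void-treated mouse stand high for Bub1b, and Ccnd1 overlaps between the groups.

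Among the mitotic cyclins, the partners of Cdk1, none was called. Ccnb1, cyclin B1, was too rare to be tested, with 11, 15, 7, 5 and 5 counts in the void libraries and 17, 13, 25, 7 and 9 in the DHT libraries. Its level was 0.253 ± 0.131 CPM (SD, n = 5) with void and 0.357 ± 0.133 with DHT (SD, n = 5), and the groups overlapped. In the fit without a filter its log2 fold change was 0.51 (edgeR adjusted p = 0.620). Ccnb2 had a log2 fold change of 0.41 (SE 0.32) and Ccna2, the cyclin of S and G2 phase, 0.20 (SE 0.16). Ccnb1 and Ccnb2 have named pseudogenes whose reads could be shared.

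Of the mitotic kinases and the spindle checkpoint, 4 of 6 genes were tested and 0 were called. Bub1b, whose product BUBR1 holds back anaphase until every chromosome is attached, had the second largest log2 fold change of the tested genes, 0.87, with their largest SE, 0.52 (95% interval −0.26 to 2.01, edgeR adjusted p = 0.450). Its level was 0.634, 0.735, 2.20, 0.738 and 0.749 CPM with void and 0.820, 0.765, 3.85, 2.78 and 0.953 CPM with DHT. Void mouse 9 and DHT mice 3 and 5 stood at more than 2 CPM, while the other 7 mice, from both groups, were under 1 CPM. Cdc20, an activator of the anaphase-promoting complex, was at 0.42 (SE 0.20, edgeR adjusted p = 0.317) on the log2 fold scale, Plk1 at 0.13 (SE 0.17) and Aurka at −0.23 (SE 0.14).

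The kinases Bub1 and Aurkb were untested, with 1 to 16 counts and 0 to 9 counts per library. Bub1 was at 0.129 ± 0.0851 CPM (SD, n = 5) with void and 0.251 ± 0.0937 with DHT (SD, n = 5), and Aurkb at 0.126 ± 0.0809 (SD, n = 5) and 0.188 ± 0.0656 (SD, n = 5). Without the filter their log2 fold changes were 0.92 and 0.58 (edgeR adjusted p = 0.457 and 0.620).

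None of the 4 kinetochore and chromosome passenger genes was called. Birc5, survivin, the passenger subunit that targets Aurora B to centromeres, was at 0.359, 0.511, 0.403, 0.701 and 0.389 CPM with void and 0.492, 0.543, 0.503, 0.449 and 0.387 CPM with DHT. The void range enclosed the DHT range, and the log2 fold change was 0.036 (SE 0.22, 95% interval −0.45 to 0.52). Cenpf had a log2 fold change of 0.33 (SE 0.19), Cenpe, a kinetochore motor, 0.052 (SE 0.16) and Cdca8, borealin, −0.16 (SE 0.19).

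The 6 spindle motor and microtubule genes gave log2 fold changes from −0.045 (Tpx2) to 0.42 (Nusap1), and 0 were called. Nusap1, which bundles spindle microtubules, was at 0.693 ± 0.0876 CPM (SD, n = 5) with void and 0.923 ± 0.169 with DHT (SD, n = 5) (log2 fold change SE 0.18, edgeR adjusted p = 0.252). The kinesins Kif11, Kif20a and Kif23 were at 0.18 (SE 0.19), 0.090 (SE 0.22) and 0.21 (SE 0.18) on the log2 fold scale, and Prc1, which organises the central spindle, at 0.22 (SE 0.21).

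In cytokinesis, the most abundant mitosis gene did not differ beyond the spread between mice. Anln was at 66.7, 44.0, 60.5, 75.5 and 47.9 CPM with void and 60.2, 79.3, 64.4, 53.6 and 55.7 CPM with DHT, with interleaved groups and a log2 fold change of 0.089 (SE 0.15, 95% interval −0.24 to 0.42). Racgap1, the GTPase activator of the central spindle, was at 5.96, 7.0, 5.40, 5.46 and 6.14 CPM with void and 5.11, 5.31, 5.80, 5.54 and 4.82 CPM with DHT. Its log2 fold change was −0.17 (SE 0.10, edgeR adjusted p = 0.451), opposite in sign to that of its partner Ect2, the exchange factor for RhoA, at 0.50 (SE 0.25, edgeR adjusted p = 0.344). Neither passed the test.

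Each of the 7 replication licensing genes had a positive log2 fold change, from 0.065 (Mcm4) to 0.42 (Mcm3), and 0 were called. The MCM proteins form the ring-shaped replicative helicase. Mcm3 was at 2.92, 3.42, 3.38, 3.65 and 2.91 CPM with void and 4.70, 3.75, 4.84, 4.43 and 4.08 CPM with DHT. The groups did not overlap, DHT mouse 2 and void mouse 10 lying closest. The log2 fold change was 0.42 (SE 0.12, 95% interval 0.17 to 0.68, edgeR adjusted p = 0.0569). As for Mki67, whether it was called turned on the method and on DHT mouse 2, with an adjusted p of 0.0258 in DESeq2 and 0.0390 in edgeR without that mouse.

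Mcm5 was at 3.97, 3.87, 4.62, 4.13 and 3.92 CPM with void and 4.95, 4.39, 5.05, 4.22 and 4.61 CPM with DHT, so that only void mouse 9 reached into the DHT range (log2 fold change 0.18, SE 0.10, edgeR adjusted p = 0.415). Mcm6 was at 14.5, 15.2, 16.8, 15.4 and 20.5 CPM with void and 19.7, 16.1, 18, 17.8 and 17.6 CPM with DHT (log2 fold change 0.11, SE 0.099). Its printed promoter stretch holds E2F motifs and no CHR. Void mouse 11 was the highest of the 10 mice. Mcm2, Mcm7 and Gins2, a subunit of the GINS complex that joins the helicase, were at 0.22 (SE 0.12), 0.18 (SE 0.082) and 0.11 (SE 0.15) on the log2 fold scale. Summed over the 6 MCM genes, levels were 50.7 to 55.2 CPM with void and 53.4 to 62.2 CPM with DHT, so the groups overlapped.

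Pcna and Tyms, of the fork and nucleotide supply, were higher in every DHT-treated mouse without passing the adjusted threshold. Pcna was at 29.4, 28.0, 32.0, 31.5 and 30.9 CPM with void and 34.9, 34.9, 34.0, 34.0 and 32.3 CPM with DHT. The gap between void mouse 9 and DHT mouse 6 was small, and the log2 fold change was 0.16 (SE 0.057, 95% interval 0.041 to 0.29, edgeR adjusted p = 0.132). Tyms, thymidylate synthase, was at 2.0 ± 0.162 CPM (SD, n = 5) with void and at 2.5 ± 0.300 CPM with DHT (SD, n = 5) (log2 fold change 0.32, SE 0.13, edgeR adjusted p = 0.209). Both genes have named pseudogenes. Rrm1 and Rrm2, the subunits of ribonucleotide reductase, were at 0.12 (SE 0.075) and 0.13 (SE 0.22) on the log2 fold scale.

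The 4 genes of G1/S control had log2 fold changes on the other side of 0, from −0.24 (Ccne2) to −0.039 (Ccne1), and 0 were called. Ccnd1 was at 78.2, 48.1, 75.8, 77.1 and 64.3 CPM with void and 60.7, 71.5, 57.5, 66.0 and 72.4 CPM with DHT. The void mice spread more widely than the DHT mice and enclosed them, with a log2 fold change of −0.067 (SE 0.12, 95% interval −0.34 to 0.20). E2f1, an activating E2F, was at 4.99, 7.70, 5.40, 5.79 and 5.15 CPM with void and 5.30, 5.03, 4.57, 5.90 and 6.28 CPM with DHT, with a log2 fold change of −0.10 (SE 0.14). Both cyclin E genes overlapped as well, Ccne2 having a log2 fold change SE of 0.16 and Ccne1 of 0.099.

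The mice differed within the DHT group. DHT mouse 3 was above every void-treated mouse in 23 of the 37 tested genes and DHT mouse 1 in 19. DHT mouse 6 was above the void range in 13 genes, and DHT mice 2 and 5 in 9 each. DHT mouse 3 was the highest of all 10 mice in 15 genes and DHT mouse 1 in 7. Such counts were not made over all genes tested, so whether they are particular to this set cannot be told. The mitosis genes without Anln summed to 27.8 to 32.3 CPM with void and to 35.4, 29.9, 45.1, 32.5 and 31.1 CPM with DHT, so DHT mice 2 and 6 lay inside the void range. With Bub1b left out as well, the void sums were 27.1 to 31.6 CPM. DHT mouse 5, at 29.7 CPM, then lay inside the void range too. The replication genes, Ccnd1 included, summed to 180.2 to 208 CPM with void and 205 to 209 CPM with DHT. Ccnd1 made up a large part of this sum, at 48.1 to 78.2 CPM with void and 57.5 to 72.4 CPM with DHT. With Ccnd1 left out of the sum, every DHT-treated mouse lay above every void-treated mouse. Ccnd1 was left out after its values were seen, and this difference was not tested. DHT mouse 1 also had the highest homeostatic microglia sum, 884 CPM, and the highest choroid plexus sum, 3066 CPM, while DHT mouse 3 had the lowest of the DHT group for both, 623 and 2173 CPM. For the disease-associated microglia list DHT mouse 5 was highest at 625 CPM, with DHT mouse 1 at 605 CPM and DHT mouse 3 at 524 CPM.

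**Figure D4:**
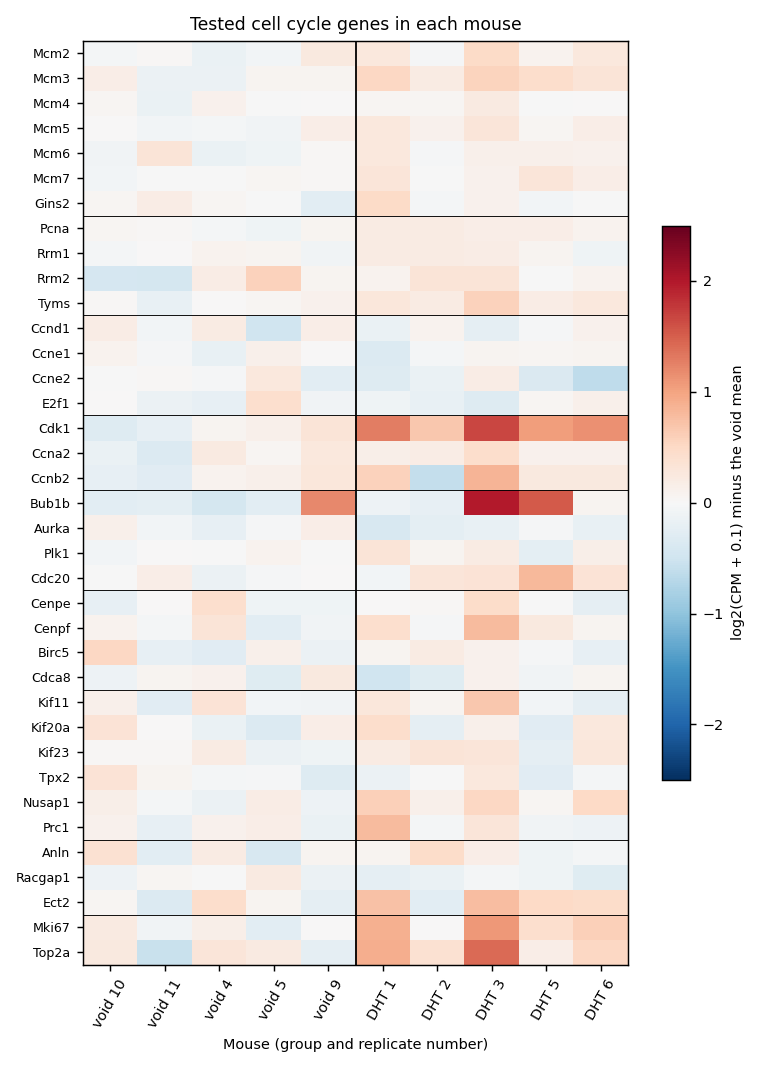
Difference of log2(CPM + 0.1) from the void mean for the 37 tested cell cycle genes (rows, by role, separated by lines) in each of the 10 mice (columns; void left of the vertical line, DHT right). DHT mice 3 and 1 are the highest of the 10 mice in 15 and 7 rows, and the row of Cdk1 is red in all 5 DHT-treated mice. The counts of rows have no counterpart over all genes tested.

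Control of the cycle beyond the set was read from a list of 100 further genes of cyclin, inhibitor, origin, spindle and chromatin assembly function, 99 with a row and 89 tested. Of these 3 rose (3.37%) and 0 fell, against 5.22% and 0.261% of all genes tested. Positive log2 fold changes were seen in 67 of 89 (75.3%), with a median of 0.11, against 52.4% and 0.0094 for all genes tested. The 3 genes were Cdkn1a, Cdkn1c and E2f7. DESeq2 called Cdkn1a, Cdkn1c, Ccnd3 and Espl1. At an unadjusted p under 0.05, 13 of the 89 genes were higher (14.6%) and 2, Cdc25b and Cit, were lower (2.25%), against 13.1% and 4.22% of all genes tested. The higher genes were the 3 called, E2f8, Ccnd3, Espl1, Uhrf1, Kif15, Pbk, Hmgb2, Chaf1a, Chaf1b and Asf1b. Neither list gave a call with the choroid plexus or the microglia score as a covariate.

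Cdkn1a encodes the CDK inhibitor p21, a target of p53. Its level was 7.84, 7.22, 6.76, 7.90 and 5.99 CPM with void and 15.7, 10.5, 11.4, 15.1 and 11.3 CPM with DHT, without overlap. The means were 7.14 ± 0.796 CPM (SD, n = 5) and 12.8 ± 2.38 CPM (SD, n = 5), a log2 fold change of 0.84 (SE 0.13, 95% interval 0.55 to 1.13, edgeR adjusted p = 0.00761).

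Cdkn1c encodes the imprinted CDK inhibitor p57. Its level was 5.52, 4.63, 10.8, 2.88 and 5.12 CPM with void and 19.6, 14.5, 15.4, 14.7 and 14.7 CPM with DHT (log2 fold change 1.44, SE 0.27, 95% interval 0.86 to 2.02, edgeR adjusted p = 0.0115). The groups did not overlap, and void mouse 9 was the nearest to the DHT range. That mouse also had the highest choroid plexus sum of the void group, 1907 CPM, and DHT mouse 1, the highest for Cdkn1c, had the highest of all. Void mouse 10, the lowest for Cdkn1c, had a sum of 457 CPM, above the 117 and 125 CPM of void mice 5 and 11. With the choroid plexus score added to the fit, the log2 fold change of Cdkn1c was 0.78 (edgeR adjusted p = 0.658). Of all genes tested, 0 were called in that fit. The part of the choroid plexus in the Cdkn1c result was not tested and cannot be told apart from treatment.

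E2f7 encodes an atypical E2F that represses E2F targets. It was at 0.148, 0.224, 0.186, 0.221 and 0.180 CPM with void and 0.410, 0.444, 0.419, 0.329 and 0.476 CPM with DHT (log2 fold change 1.13, SE 0.22, edgeR adjusted p = 0.0130). These are 6 to 7 counts per void library and 11 to 20 per DHT library, and E2f7 passed the filter through the DHT libraries alone. Its adjusted p was 0.0567 in DESeq2 and 0.0516 in edgeR without void mouse 11, and it was not called there. E2f8, the paralog of E2f7, was at 0.355 ± 0.0489 CPM (SD, n = 5) with void and 0.570 ± 0.0661 with DHT (SD, n = 5), also without overlap (log2 fold change 0.68, SE 0.18, edgeR adjusted p = 0.0559).

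**Figure D5:**
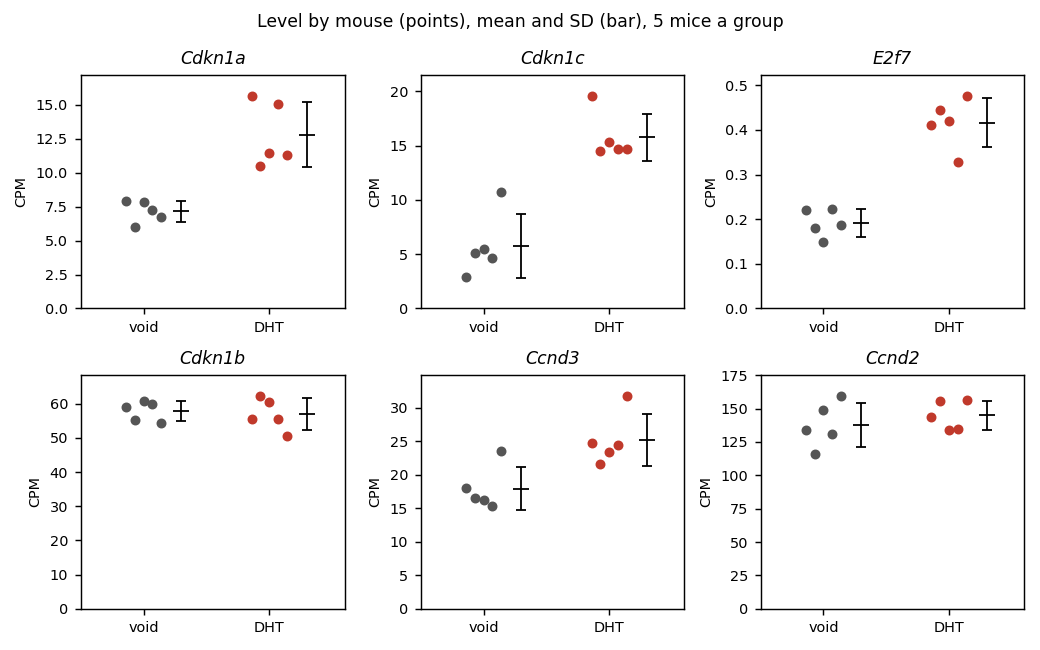
CPM of 6 further regulators of the cell cycle in each mouse (points; grey, void; red, DHT) with the mean and SD over 5 mice a group (bars), each axis starting at 0. The groups separate for Cdkn1a, Cdkn1c and E2f7 and overlap for Cdkn1b, Ccnd2 and Ccnd3, where void mouse 9 at 23.5 CPM reaches the DHT range.

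Other G1 regulators were not called. Ccnd3, cyclin D3, was at 16.3, 15.3, 23.5, 18 and 16.6 CPM with void and 24.7, 21.6, 23.5, 24.4 and 31.8 CPM with DHT, with a log2 fold change of 0.49 (SE 0.13, edgeR adjusted p = 0.0502) at the edge of the threshold. It was called in DESeq2, when scaled by library size only, with either other filter, and without void mouse 9 or DHT mouse 2. Ccnd2, cyclin D2, was at 138 ± 16.8 CPM (SD, n = 5) with void and 145 ± 10.7 with DHT (SD, n = 5) (log2 fold change 0.073, SE 0.085). Cdkn1b, the inhibitor p27, was at 57.9 ± 2.87 CPM with void (SD, n = 5) and at 56.9 ± 4.61 CPM with DHT (SD, n = 5), and the 95% interval of its log2 fold change was −0.17 to 0.12 around −0.025. The G1 kinases Cdk4 and Cdk6 had log2 fold changes of 0.16 (SE 0.083) and 0.14 (SE 0.11), the S phase kinase Cdk2 0.26 (SE 0.14) and Rb1, the retinoblastoma protein, −0.068 (SE 0.10). Cdkn2a, the senescence-associated locus of p16 and ARF, was too rare to be tested, with 0 to 4 counts per void library and 2 to 10 per DHT library.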

How the data were processed

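Bulk RNA-seq of hippocampus was available for 10 female P301S mice, 1 library per mouse, grouped by the implant given in the labels. The authors made paired-end mRNA libraries, trimmed reads with HTStream, aligned them with STAR 2.7.10b and deposited unnormalized counts per gene. The paper names mm10 and the submitters' processing notes name mm39, so no coordinates are given for counted genes. The annotation release, the counter and the handling of strand and multi-mapping reads are not given in the sources used here. Identifiers were matched to GENCODE M21 symbols (51948 of 56884). By the RefSeq annotation 16 of the 40 genes overlap another gene.

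In R 4.3.3, edgeR 4.0.16 with TMM, its expression filter by group (17622 genes) and its quasi-likelihood test was the main analysis, with Benjamini-Hochberg adjustment over all genes tested. SE is |log2 fold change| over the square root of F. DESeq2 1.42.0, other scalings, filters and thresholds, 2 covariates and fits without each single mouse were alternatives. The functions were checked on simulated counts. No libraries were duplicates (lowest chi-square per degree of freedom 9.97 over 45 pairs). P-values set the difference between the implants against the spread between mice. The paper reports social housing by treatment group, so an effect of the cage cannot be told apart from the implant.

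The genes, lists and tests were chosen with earlier results of these data known. Values per mouse are given for called genes, the 4 largest fold changes and a fixed list of landmark genes. Mcm3, Tyms, Nusap1, E2f8, Cdc25b, Cit, Dcx and Neurod1 were singled out after their values were seen. So were the further genes named for an unadjusted p under 0.05. Count depth limits the precision of genes under about 1 CPM.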

Additional observations from a re-analysis of the deposited data

Results flagged for a closer look

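In each group of 5 mice, a gene was marked when its highest or lowest mouse lay further from its nearest neighbour than 0.71 of the group's range. Of 80 groups examined, 7 were marked, and about 4 would be by chance. In void-treated mice these were Bub1b, with mouse 9 highest at 2.20 CPM (gap 0.927 of the range), and Cenpe, with mouse 4 highest at 4.14 CPM (0.711).

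In DHT-treated mice, mouse 3 was far above the others for Ccna2 (2.09 CPM, 0.804 of the range), Mcm4 (16.6 CPM, 0.758) and Tyms (3.02 CPM, 0.751). DHT mouse 5 was far below the others for Kif23 (0.539 CPM, 0.754), and DHT mouse 1 far above for Cdkn1c (19.6 CPM, 0.826).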

How the results depend on the processing

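The count of cell cycle genes called higher, 1, was 3 in DESeq2, 0 with at least 10 counts in every library, where Cdk1 was not tested, and 0 with the choroid plexus or the microglia score as a covariate. With each mouse left out it was 1 to 3, and 0 genes were called lower under every alternative run. Of the further cell cycle genes, 3 were higher in the main analysis, 0 with either covariate and 2 to 6 with a mouse left out. Over all genes the 920 higher and 46 lower became 0 and 0 with either covariate, 382 and 4 with a log2 fold change beyond 1, and 505 and 12 with that limit on unadjusted p. DESeq2 gave 224 lower, and leaving out a mouse gave 351 to 1072 higher and 5 to 77 lower. Both scores separate the implants, and score and implant cannot be told apart in these fits. The median log2 fold change of the set was 0.085 to 0.18 with a mouse left out. In the bases before the start alone, 16.3% of all promoters held a CHR, 1.91% an E2F motif and 34.5% a CCAAT box, and 33.3% of mitosis promoters held a CHR. The median over all genes stayed within 0.1 of 0 under each scaling.

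Signs reversed for some genes, none of them called. With the choroid plexus score, log2 fold changes were −0.12 for Ccna2, −0.071 for Kif11, −0.15 for Kif20a, −0.072 for Cenpe, 0.15 for Tpx2, −0.038 for Mcm4, 0.074 for Ccne1, 0.012 for Ccne2, 0.13 for E2f1, −0.24 for Anln and 0.012 for Racgap1. With the microglia score they were −0.0082 for Plk1, −0.27 for Kif20a, −0.12 for Birc5, −0.013 for Mcm6, −0.33 for Gins2, 0.26 for Ccne1, 0.27 for Cdca8 and −0.41 for Prc1. With a mouse left out they ran from −0.012 to 0.28 for Kif11, −0.060 to 0.19 for Kif20a, −0.095 to 0.18 for Cenpe, −0.16 to 0.047 for Tpx2, −0.060 to 0.21 for Birc5, −0.0031 to 0.091 for Mcm4, −0.010 to 0.31 for Rrm2, −0.046 to 0.15 for Gins2, −0.17 to 0.022 for E2f1, −0.013 to 0.30 for Prc1 and −0.0099 to 0.19 for Anln. None of these passed the threshold in any fit, and the cause was not tested. Of 677 values compared for single genes, 626 kept their sign and their side of the threshold.

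No paired analysis was possible because 5 is the one replicate number that occurs with both implants. Cdk1, Ccnb1, Bub1, Aurkb and E2f7 had at most 49 counts in any library, which limits their precision.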
